A study of Homo sapiens with 12 samples.

Results

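The 4 human HOX gene clusters were examined as stretches of chromatin in Huh7, a hepatocellular carcinoma cell line. The peaks described are those of the deposited ChIP-seq peak lists that overlap 4 fixed windows of the hg19 genome. These are chr7:27120001-27260000 (HOXA, 140 kb), chr17:46600001-46810000 (HOXB, 210 kb), chr12:54330001-54450000 (HOXC, 120 kb) and chr2:176940001-177060000 (HOXD, 120 kb), or 590 kb in all. They held 880 of the 1552170 peaks deposited on chromosomes 1 to 22 and X by 10 ChIP libraries. The clusters hold 38 HOX genes of this description, 10 in HOXA, 10 in HOXB, 9 in HOXC and 9 in HOXD.

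All cells carried a FLAG tag that genome editing had added to the C-terminal end of endogenous VPS72, by Cas9 cutting with a repair template and blasticidin selection of colonies. Whether the cells used were 1 clone is not given in the sources used here. Control cells were infected for 24 h with lenti-HA virus, the empty vector. Overexpression cells were infected for the same time with lenti-VPS72-FLAG virus, so their FLAG signal comes from both the tagged endogenous protein and the virus-borne one. Each condition had 1 library for each of 5 antibodies, against FLAG, the histone marks H3K27ac and H3K4me1, the histone variant H2A.Z and its acetylated form (H2A.Zac), plus 1 input, 12 libraries in all. With 1 library per antibody and condition no difference between conditions could be tested, and every comparison below describes these libraries. No FLAG ChIP of untagged cells was analysed here.

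HOX genes encode homeodomain transcription factors that set position along the body axis, and their order within a cluster follows their order of use in the embryo. Silent HOX clusters are classical targets of Polycomb repression, while the active parts of a cluster carry acetylated histones and the Trithorax-type methylation of H3. VPS72 is a histone-binding subunit of the SRCAP and TIP60 remodelling complexes, which place the variant H2A.Z into nucleosomes. H2A.Z marks promoters and enhancers, its acetylated form goes with active ones, H3K27ac marks active promoters and enhancers, and H3K4me1 marks enhancers.

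In the RefSeq gene table the members run, from low to high coordinate, from HOXA2 to HOXA13 on chromosome 7 and from HOXB1 to HOXB9 on chromosome 17, with HOXB13 last and apart. On chromosome 2 they run from HOXD13 down to HOXD1, and on chromosome 12 from HOXC13 down to HOXC8. HOXC4, HOXC5 and HOXC6 come last on chromosome 12, listed in that sequence by the low coordinate of each entry. HOXC4 and HOXC5 share a promoter start, so this sorting need not give the order of HOXC4, HOXC5 and HOXC6 along the cluster. That table is of GRCh38.p14, another build than the peak lists, so peaks were placed by their distance from the low-coordinate edge of each window and not on single genes. All 38 members were found in it.

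The promoters of 1 member per cluster are shown, since H2A.Z and the acetyl marks are known to favour CpG-rich promoters and the letters show how far HOX promoters are of that kind. RefSeq entries matched 20 of the 38 members, 9 in HOXA, 1 in HOXB, 2 in HOXC and 8 in HOXD, and gave 27 entries. Of these 7 are HOXA3 and 2 are HOXA10, and HOXC4 and HOXC5 share 1 start, so that 26 sequences are distinct and the shares below weigh HOXA3 most. HOXA9 stands for paralog group 9, and the lowest-numbered member with an entry was taken in each of the other clusters. Each run is the 250 bases before the start, 5′ to 3′ on the strand of the gene, with CG dinucleotides in capitals. In GRCh38.p14 they lie at chr7:27165538-27165787 (minus strand), chr17:48531012-48531261 (minus), chr12:54016638-54016887 (plus) and chr2:176188418-176188667 (plus).
HOXA9: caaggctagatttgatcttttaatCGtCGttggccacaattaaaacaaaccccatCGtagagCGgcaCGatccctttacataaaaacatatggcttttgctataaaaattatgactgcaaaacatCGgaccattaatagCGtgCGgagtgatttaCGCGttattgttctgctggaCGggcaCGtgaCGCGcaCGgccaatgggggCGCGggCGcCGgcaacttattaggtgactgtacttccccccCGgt
HOXB1: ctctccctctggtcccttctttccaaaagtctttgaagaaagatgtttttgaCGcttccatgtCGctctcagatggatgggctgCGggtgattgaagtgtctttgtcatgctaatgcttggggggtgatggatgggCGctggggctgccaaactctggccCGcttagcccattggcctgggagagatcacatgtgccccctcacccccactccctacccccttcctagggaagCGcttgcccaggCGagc
HOXC4: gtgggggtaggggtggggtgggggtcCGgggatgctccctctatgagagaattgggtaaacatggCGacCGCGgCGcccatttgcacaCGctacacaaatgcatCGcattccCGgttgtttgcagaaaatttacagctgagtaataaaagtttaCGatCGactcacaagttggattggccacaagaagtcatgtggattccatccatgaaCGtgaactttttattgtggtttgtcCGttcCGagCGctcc
HOXD1: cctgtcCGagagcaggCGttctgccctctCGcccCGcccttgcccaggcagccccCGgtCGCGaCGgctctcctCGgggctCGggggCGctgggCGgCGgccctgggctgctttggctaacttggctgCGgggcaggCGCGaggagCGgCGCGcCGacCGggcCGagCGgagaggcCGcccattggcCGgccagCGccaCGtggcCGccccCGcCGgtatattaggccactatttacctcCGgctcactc

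The CG dinucleotide was frequent in 3 of these runs and sparse in HOXB1. HOXA9, a posterior gene, had 20 CG, 1.34 times the number its C and G content gives, at 48.8% GC. HOXD1, an anterior gene, had 31 CG and a ratio of 0.888 at 74.8% GC, and HOXC4 had 14 CG and a ratio of 0.888 at 50.8% GC. HOXB1, the most anterior HOXB gene, had 7 CG and a ratio of 0.343 at 57.2% GC. Over the 27 member entries the median ratio was 0.888, beside 0.558 over all 35116 promoter entries, and 21 of the 27 (77.8%) reached a ratio of 0.6, beside 47.5% of all entries. HOXA13 had the highest GC content of these entries, 78%, with 40 CG. The motif TGATNNAT, the composite letters that PBX and HOX proteins bind together, was searched on both strands of the 250 bases. It was present in 3 of 27 entries (11.1%), those of HOXA2, HOXB1 and HOXD11, beside 6.47% of all entries.

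A region is called here where its peak has a q of 0.05 or less. Depth, recovered from the deposited values at an assumed genome size of 2.7 Gb, was lowest for FLAG, at 4.38 M reads (M, mega) in control and 3.07 M reads with overexpression. The 8 histone libraries had between 17.9 M and 25 M reads, so FLAG is the least precise. Height below means the reads stacked on a peak's summit divided by the mean over the genome in that library. Neither input had a peak in any of the 4 windows, in lists of 467 and 490 peaks. Over the 8 window edges, the nearest called FLAG region of control cells lay 3.81 to 21.3 kb inside and 1.92 to 295 kb outside, and the outside one was nearer at 4 edges. With overexpression these distances were 3.76 to 18.6 kb inside and 0.147 to 34.7 kb outside, and the outside one was nearer at 6 edges. At the high edge of HOXD, for example, the nearest inside lay at 5.58 kb in control (deposited fold 8.72) and 5.49 kb with overexpression (fold 8.41), and the nearest outside at 295 kb (fold 5.9) and 5.71 kb (fold 3.61).

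The share covered by each histone mark was highest in HOXA and HOXC, lower in HOXD and lowest in HOXB. In control cells, H2A.Zac regions covered 27.6% of HOXA and 19.5% of HOXC, but 6.32% of HOXD and 0.661% of HOXB, beside 1.34% of the genome. H3K27ac covered 22.2% of HOXA, 13.9% of HOXC and 1.33% of HOXD, with no called region in HOXB, beside 1.08% of the genome. Total H2A.Z covered 18.8% of HOXA, 11.5% of HOXC, 6.46% of HOXD and 0.78% of HOXB, beside 0.642% of the genome. H3K4me1 covered 1.94%, 2.34% and 0.805% of HOXA, HOXC and HOXD and none of HOXB, beside 0.486% of the genome. HOXA and HOXC thus stood far above the genome for H2A.Z and both acetyl marks, HOXD stood above it for H2A.Z and H2A.Zac but close to it for H3K27ac, and HOXB lay near or below it for every histone mark.

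FLAG followed another order. In control cells it covered 22% of HOXD, 13% of HOXB, 11.8% of HOXA and 4.85% of HOXC, beside 1.77% of the genome and 1.23% of the 500 kb on either side of the windows. The called FLAG regions numbered 33 in HOXD, 33 in HOXB, 21 in HOXA and 11 in HOXC. Per 100 kb, since HOXB is the longest window, they numbered 27.5 in HOXD, 15.7 in HOXB, 15 in HOXA and 9.17 in HOXC. HOXD thus stood highest and HOXC lowest, with HOXB close to HOXA. With overexpression FLAG covered 18.6% of HOXD, 10.2% of HOXA, 9.3% of HOXB and 4.37% of HOXC. At a stricter q of 1e-05 FLAG still covered 6.53% of the windows, beside 0.781% of the genome. The local background that the peak caller set at FLAG peaks was also higher there, with a median at called regions of 2.34 times the genome average in the windows and 2.12 over the genome, and its part in the result was not tested.

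**Figure D1:**
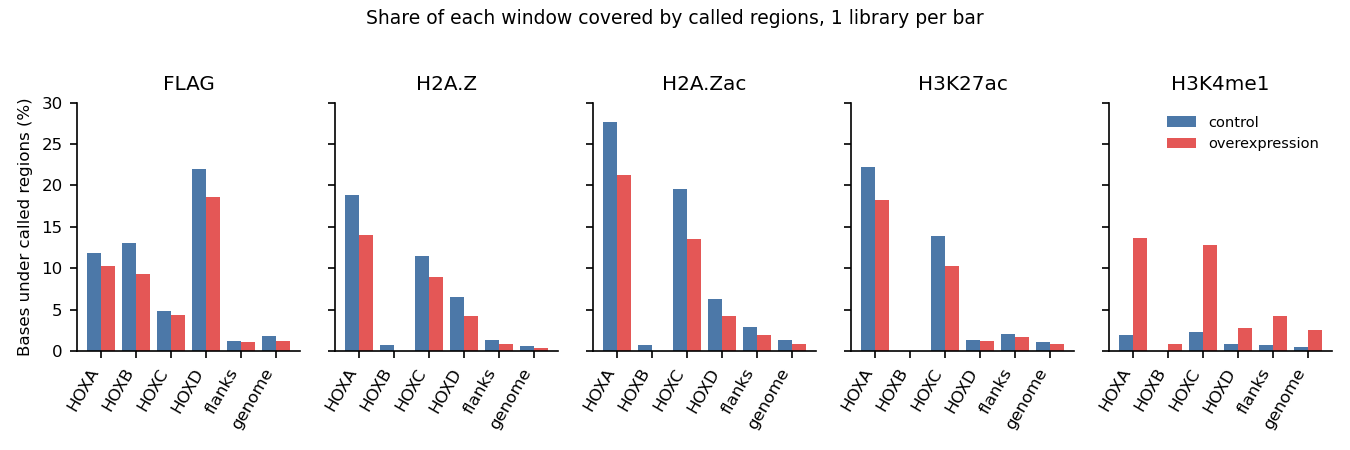
Percentage of bases under called regions (y axis) in each HOX window, in the 500 kb flanks and in the genome (x axis), for 5 antibodies; blue is control, red is overexpression, and each bar is 1 library. H2A.Zac reaches 27.6% of HOXA and 0.661% of HOXB in control cells, while FLAG reaches 22% of HOXD and 13% of HOXB.

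In control cells 98 of 153 deposited FLAG peaks in the windows were called, beside 37.1% of FLAG peaks over the genome. For H2A.Z 45 of 96 were called, beside 14.3%, for H2A.Zac 48 of 56, beside 49.3%, for H3K27ac 38 of 59, beside 42.5%, and for H3K4me1 11 of 84, beside 16.2%. With overexpression 80 of 158 FLAG peaks were called, beside 8.39% over the genome. For H2A.Z 36 of 68 were called, beside 24.3%, for H2A.Zac 42 of 59, beside 38.2%, for H3K27ac 33 of 52, beside 31.2%, and for H3K4me1 52 of 95, beside 55.2%. A larger share of deposited peaks was called in the windows than in the genome for FLAG, H2A.Z, H2A.Zac and H3K27ac in both conditions. For H3K4me1 it was 13.1% in control and 54.7% with overexpression, near the genome in both.

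HOXA was the most heavily marked cluster. Its highest H2A.Zac region lay at chr7:27199780-27201330 (hg19), 80.5 kb from the window edge, with 82 reads at the summit in control cells, 42.3 times the genome average, and 61 reads, 27.3 times, with overexpression. The same place had H2A.Z heights of 12.2 and 11 and H3K27ac heights of 15.5 and 14.5, and a FLAG height of 21.9 in control cells only, where it is the strongest FLAG region of the windows without a deposited peak in the other condition. The highest H3K27ac region lay at chr7:27169525-27171189, 50.2 kb from the edge, with heights of 40.6 in control and 28 with overexpression. There H2A.Zac measured 25.8 and 12.5 and FLAG 11 (not called) and 27.3. The widest H3K27ac region, 3796 bases at chr7:27150545-27154340, and the widest H2A.Zac region, 3769 bases at chr7:27181210-27184978, were in HOXA as well.

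Within HOXA the marks were unevenly spread. Between 30 and 50 kb from the edge, H3K27ac covered 5252 and 3630 bases of the consecutive 10 kb bins in control cells, and FLAG covered none; the longest FLAG-free stretch ran from 28.7 to 59 kb. Between 80 and 90 kb FLAG covered 4114 bases, the most of any HOXA bin, H2A.Zac 4653 and H3K27ac 1636. With overexpression FLAG covered 403 and 338 bases of the first pair of bins and 3539 of the last. The high-coordinate edge of the window crosses the FLAG region with the highest summit among those that overlap a window, chr7:27259925-27260525, with 27 reads (height 59.2) in control and 24 reads (72.8) with overexpression. The summit itself, at base 27260199 in control and 27260286 with overexpression, lies just outside the window. No histone mark had a deposited peak at chr7:27259925-27260525 in either condition. The highest control FLAG summit inside a window measured 46, in HOXD.

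HOXC showed the HOXA pattern at lower coverage. Its highest H2A.Zac region, chr12:54367310-54369692, had a height of 38.7 (75 reads) in control and 20.1 (45 reads) with overexpression. It coincides with the widest H2A.Z region of the windows, 2748 bases, with H2A.Z heights of 12.2 and 9.75. The highest H3K27ac region of HOXC, chr12:54387543-54390609, measured 29.4 and 24.3, with H2A.Zac at 17.5 and 17 and H3K4me1 at 8.92 and 9.25. FLAG was sparse in HOXC, and its region of lowest q, chr12:54348772-54349404, had 14 reads in each condition (heights 30.7 and 42.5). No H2A.Z, H2A.Zac or H3K27ac peak was deposited there, and H3K4me1 measured 5.02 (not called) and 5.35.

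HOXD had 12 called H2A.Z regions in control cells, beside 11 in HOXC, but they were narrower, with a median of 535 bases beside 1410. It had 8 called H2A.Zac regions, and H3K27ac regions were fewer still. The H3K27ac regions called in control cells were 2, at 99.4 and 113 kb from the edge, towards the end of the window where the gene table places HOXD1. At chr2:177052253-177053794, H2A.Zac measured 23.7 and 15.7 in control and overexpression, H2A.Z 10.7 and 9.75, H3K27ac 8.02 and 6.53, and FLAG 35.1 and 39.5, so all of them were called in both conditions except H3K4me1, which had no peak. The place at chr2:176961981-176962988, 22.4 kb from the edge towards the HOXD13 end, had H2A.Zac heights of 24.2 and 16.1 with H2A.Z at 10.7 and 13.4 and neither FLAG nor H3K27ac. The FLAG regions of lowest q in HOXD were chr2:177042620-177043578 in control (height 43.8, and 57.7 with overexpression) and chr2:176986502-176988435 with overexpression (60.7, and 46 in control), and neither had a called histone mark.

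HOXB held many FLAG regions and few histone ones. Its 2 H2A.Zac and 3 H2A.Z regions of control cells were low. The highest, at chr17:46687575-46688078, had an H2A.Zac height of 9.79 and an H2A.Z height of 7.16 in control, and 4.93 and 4.27, neither called, with overexpression. H3K27ac had 2 deposited peaks in control and 5 with overexpression, none of them called. H3K4me1 had 5 called regions with overexpression and 0 in control. FLAG regions were spread along the cluster, that of lowest q at chr17:46655013-46656356 with 18 reads (39.5) in control and 17 reads (51.6) with overexpression, with no deposited histone peak. They broke off at 127 kb from the edge: 28 of the 33 control regions lay before a bare stretch of 65.6 kb (chr17:46726590-46792224) and 5 after it. With overexpression the bare stretch was 67.4 kb, with 27 regions before and 2 after. HOXB13, which specifies the most posterior positions, is the last member in the gene table, apart from the others, but neither it nor HOXB9 was placed on these regions.

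**Figure D2:**
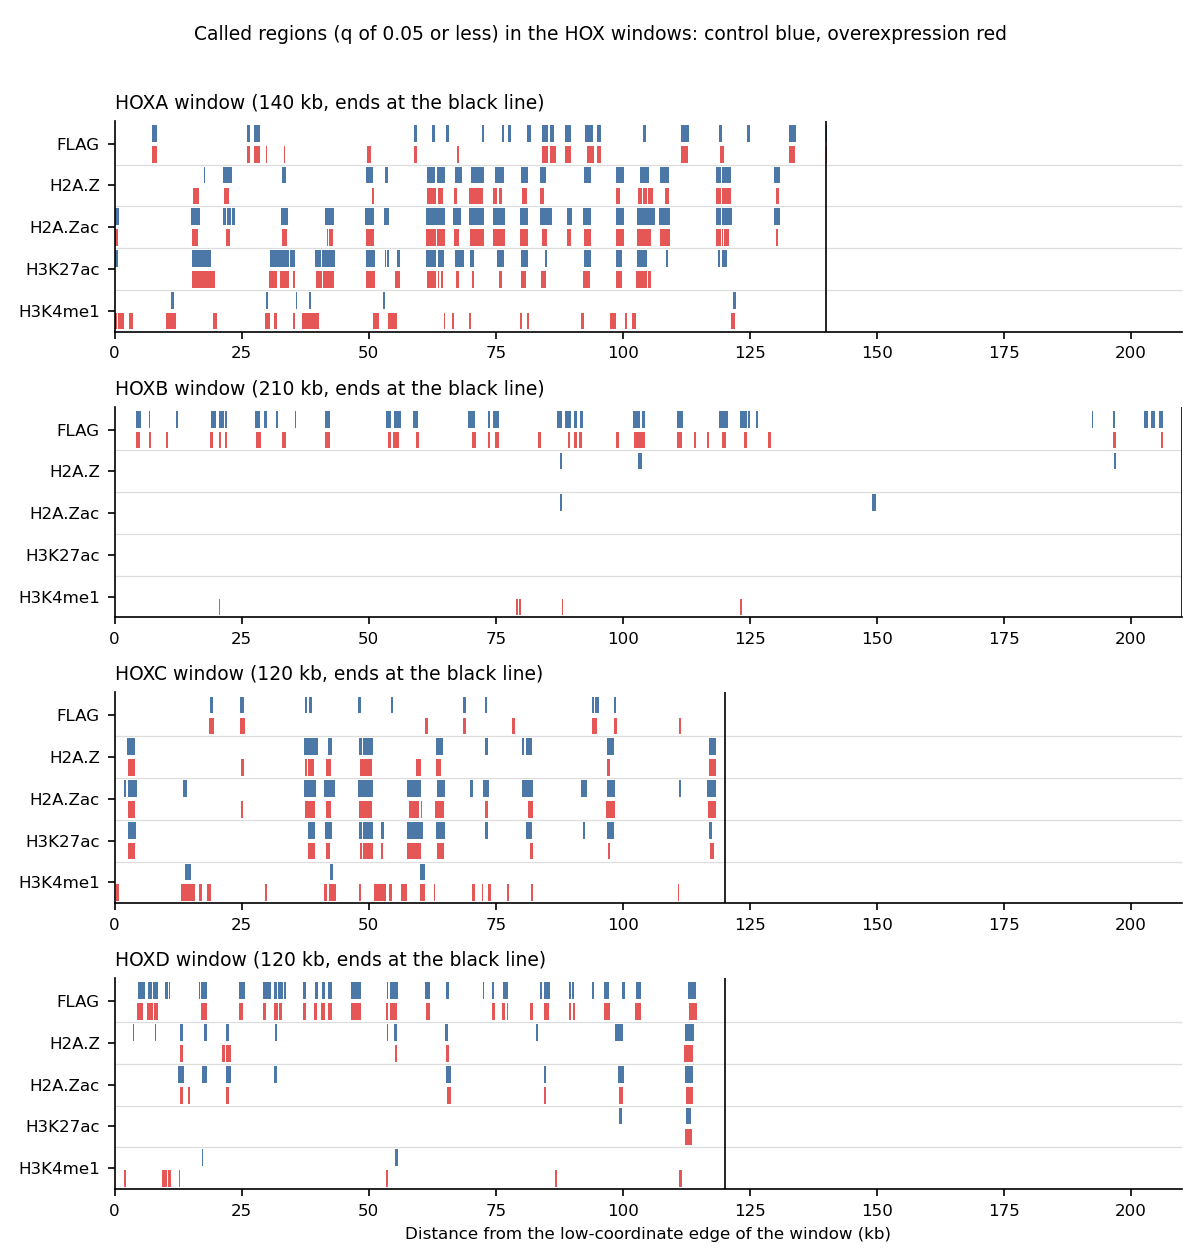
Called regions of each antibody (rows) along the 4 HOX windows, as distance in kb from the low-coordinate edge (x axis); blue boxes are control, red boxes overexpression, 1 library each. Acetyl marks are densest in HOXA and HOXC, HOXB shows FLAG with a bare stretch from 127 to 192 kb, and HOXD shows dense FLAG with few H3K27ac regions.

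Most FLAG regions of the clusters lay off the histone marks, and the share differed by cluster. In control cells 28 of 98 FLAG regions (28.6%, Wilson 95% interval 20.6 to 38.2, counting error only) overlapped a called H2A.Z, H2A.Zac, H3K27ac or H3K4me1 region, beside 13.4% over the genome. The counts were 10 of 21 in HOXA, 5 of 11 in HOXC, 9 of 33 in HOXD and 4 of 33 in HOXB. H2A.Z itself was overlapped by 25.5% of them, beside 8.31% over the genome. With overexpression the shares were 21.2% for any mark (17 of 80), beside 14.5%, and 7.5% for H2A.Z (6 of 80), beside 5.43%. HOXB then had 1 of 29 FLAG regions on a mark. Both shares were higher in the windows than over the genome, by more in control cells than with overexpression. The overexpression intervals were 13.7 to 31.4 for any mark and 3.48 to 15.4 for H2A.Z. Such intervals do not test the windows against the genome. H2A.Z was also denser there, covering 8.41% of the windows in control and 6.01% with overexpression, beside 0.642% and 0.328% of the genome. The part of this density in the shares was not tested. Read from the other side, 23 of 45 control H2A.Z regions (51.1%) overlapped a called FLAG region, beside 21.9% over the genome, and 7 of 36 with overexpression (19.4%), beside 18.4%.

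The heights of FLAG regions on and off the marks had no common order over clusters and conditions. In control cells the median height of the 70 off the marks was 21.9 and of the 28 on them 17.5; over the genome these medians were 15.3 and 17.5. In HOXA the 11 regions off the marks had a median of 30.7 and the 10 on them 17.5, in HOXB they were 17.5 and 14.3, in HOXC 21.9 and 15.3, and in HOXD 23 and 26.3. With overexpression the medians in the windows were 27.3 in both, and off and on the marks they were 30.4 and 24.3 in HOXA, 21.2 and 36.4 (1 region) in HOXB, 21.2 and 24.3 in HOXC and 31.9 and 33.4 in HOXD. Of the 98 control regions 47 (48%) had no deposited histone peak at all, called or not, beside 68.4% over the genome. Of these 47, 23 were in HOXB, 69.7% of its control FLAG regions and near the genome share.

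**Figure D3:**
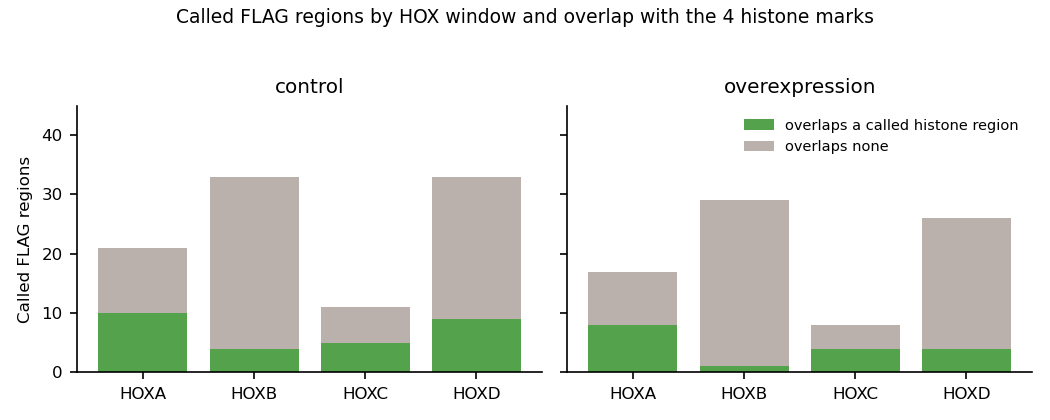
Number of called FLAG regions (y axis) in each HOX window (x axis), in 1 control and 1 overexpression library; green regions overlap a called histone region of the same condition and grey ones overlap none. In control cells HOXB has 4 of 33 regions on a mark and HOXA 10 of 21.

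Where the histone marks were present they lay together. Joining the called regions of the 8 histone lists gave 80 places, 28 in HOXA, 24 in HOXC, 20 in HOXD and 8 in HOXB. In control cells 23 of them (28.8%, beside 7.25% of the 114176 places of the genome) carried H2A.Z, H2A.Zac and H3K27ac without H3K4me1, 13 in HOXA, 8 in HOXC, 2 in HOXD and none in HOXB. Places were joined over both conditions, so 26.2% of those in the windows and 47.9% over the genome had no called mark in control. This difference enters the control shares given here. All 4 marks were called at 4 places (5%, beside 1.38% over the genome), and H3K4me1 alone at 2 (2.5%, beside 7.69%). Of the 38 H3K27ac regions 30 overlapped H2A.Z (78.9%, beside 36.8% over the genome), and of the 48 H2A.Zac regions 35 did (72.9%, beside 41.9%). These overlap shares were higher in the windows than over the genome, but H2A.Z was also denser there. In control cells it covered 8.41% of the windows and 0.642% of the genome. The part of this density in the overlap shares was not tested. The H2A.Z regions were also wide, with a median of 1104 bases beside 611 over the genome, and 1428 in HOXA but 535 in HOXD.

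With overexpression 8 places carried H2A.Z, H2A.Zac and H3K27ac without H3K4me1, 11 carried all 4 marks and 24 carried H3K4me1 alone, beside 3.21%, 2.58% and 54.4% of places of the genome. In HOXA the places with all 4 marks were 8, beside 3 in control. H3K4me1 alone was called at 10 places in HOXC, 6 in HOXD, 5 in HOXB and 3 in HOXA. The H3K4me1 region of lowest q, chr7:27149595-27150635 in HOXA, measured 7.81 in control and 10.7 with overexpression, and in HOXC chr12:54343881-54345062 measured 8.92 and 10.7, called in both. Called H3K4me1 regions numbered 52, beside 11 in control, a ratio of 4.73, and 4.26 over the genome. This ratio changed with the limit used. A q of 0.05 took a −log10 p of at least 4.4 in control and 3.36 with overexpression, so the lists were cut at unlike p. Counting instead the H3K4me1 peaks at least 5 times the genome average gave 41 in control and 39 with overexpression, a ratio of 0.951, beside 1.11 over the genome. That height takes 9 reads (5.02) in control and 11 (5.35) with overexpression, where 10 reads gave 4.87, so these read limits are unlike too. How far the limits account for the ratio was not tested.

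For the other antibodies fewer regions passed a q of 0.05 with overexpression, in the windows as in the genome. The ratios of called regions were 0.816 for FLAG, 0.8 for H2A.Z, 0.875 for H2A.Zac and 0.868 for H3K27ac, beside 0.677, 0.541, 0.707 and 0.872 over the genome. For FLAG the ratio also changed with the limit: at a q of 1e-05 the windows held 37 regions in each condition. At a height of at least 5 they held 149 in each, a ratio of 1, beside 1.51 over the genome. For FLAG that height takes fewer reads with overexpression, where 2 reads gave a height of 6.07, while 3 gave 6.58 in control. These FLAG ratios therefore compare unlike read limits near the floor. At a height of at least 5 the ratios of the other 3 were 0.797, 0.917 and 0.854 in the windows, beside 0.386, 0.659 and 0.808. The covered share of the windows was 10.4% for FLAG, 6.01% for H2A.Z, 8.63% for H2A.Zac, 6.64% for H3K27ac and 6.69% for H3K4me1, beside 1.15%, 0.328%, 0.816%, 0.893% and 2.51% of the genome. HOXA had equal numbers of called regions for H2A.Z (19 and 19) and H2A.Zac (23 and 23), but they covered less with overexpression. Their covered length was 0.744 and 0.765 times that of control, beside 0.511 and 0.61 over the genome. HOXD had 12 and 6 H2A.Z regions, a ratio of 0.5 near the 0.541 of the genome, and 0.657 times the covered length. HOXB had 3 and 0.

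Most called regions of the control lists overlapped a deposited peak of the same antibody with overexpression. This held for 78 of 98 FLAG regions (79.6%, interval 70.6 to 86.4), beside 68.4% over the genome, and for 36 of 45 H2A.Z regions (80%, 66.2 to 89.1), beside 60.5%. It held for 43 of 48 H2A.Zac regions (89.6%, 77.8 to 95.5), beside 74%, for 33 of 38 H3K27ac regions (86.8%, 72.7 to 94.2), beside 84.5%, and for 9 of 11 H3K4me1 regions (81.8%, 52.3 to 94.9), beside 89.7%. The share was above the genome value for FLAG, H2A.Z and H2A.Zac, near it for H3K27ac and below it for H3K4me1. The intervals cover counting error only and take neighbouring regions as independent, so they do not test the windows against the genome. The share also changed with the strength of the regions, reaching 97.3% for FLAG at a q of 1e-05. No genome share was computed for regions of like strength. From the overexpression lists, 72 of 80 FLAG (90%), 35 of 36 H2A.Z (97.2%), 40 of 42 H2A.Zac (95.2%), 33 of 33 H3K27ac (100%) and 28 of 52 H3K4me1 regions (53.8%) overlapped a control peak, beside 74%, 89.7%, 93.3%, 90.5% and 55.2% over the genome.

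Called control regions without a deposited overexpression peak numbered 20 for FLAG, 9 for H2A.Z, 5 for H2A.Zac, 5 for H3K27ac and 2 for H3K4me1. The strongest H3K27ac region of control cells with no overexpression peak, chr7:27239421-27240421 in HOXA, had 16 reads (height 8.55), over H2A.Z of 12.2 and 11.6. The strongest such H2A.Z region, chr2:177022919-177023242 in HOXD, had 13 reads (9.3) and no other mark called. The strongest H2A.Zac one, chr12:54343494-54344192 in HOXC, had 13 reads (6.7), beside H3K4me1 of 8.92 and 10.7. In the other direction, chr12:54354809-54355261 in HOXC had H2A.Zac (5.82) and an overlapping H2A.Z region (7.31) only with overexpression, at a place with FLAG heights of 21.9 and 27.3.

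Summit heights at shared regions were compared as overexpression over control. For H2A.Zac the median ratio was 0.661 over 43 regions, ranging from 0.448 to 1.22, and 2 of the 43 (4.65%) were higher with overexpression, beside a median of 0.652 and 4.48% over the genome. For H3K27ac it was 0.735 over 33 regions, from 0.457 to 0.952, with 0 of 33 higher, beside 0.748 and 12.7%. For H2A.Z it was 0.852 over 36, from 0.497 to 1.62, with 8 higher (22.2%), beside 0.852 and 28.6%. The medians of these 3 marks in the windows were close to those of their libraries as a whole. For H3K4me1 it was 1.01 over 9 regions with 5 higher, beside 1.09 and 62.3%.

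FLAG was the antibody whose heights in the windows departed most from the genome. The median ratio over 78 shared regions was 1.13, from 0.346 to 3.46, with 48 higher with overexpression (61.5%), beside a median of 0.865 and 36.5% over the genome. By cluster the median was 1.38 in HOXB (25 regions), 1.17 in HOXD (26), 1.11 in HOXC (7) and 0.923 in HOXA (20). A FLAG height ratio of 1.38 is that of equal reads in both libraries, as with 16 and 16 at chr17:46641362-46642403, since height allows for depth. Selected by the overexpression list the median over the windows was 1.31, beside 1.11 over the genome. In the deposited fold, which is taken over local background, the median was 1.01 in the windows and 0.781 over the genome. By cluster the fold ratio was 1.2 in HOXC, 1.09 in HOXB, 0.97 in HOXD and 0.778 in HOXA, the last near the genome. The called FLAG summits rest on few reads, from 4 to 27 in control cells, and there is no replicate, so the ratio of any single region is imprecise.

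**Figure D4:**
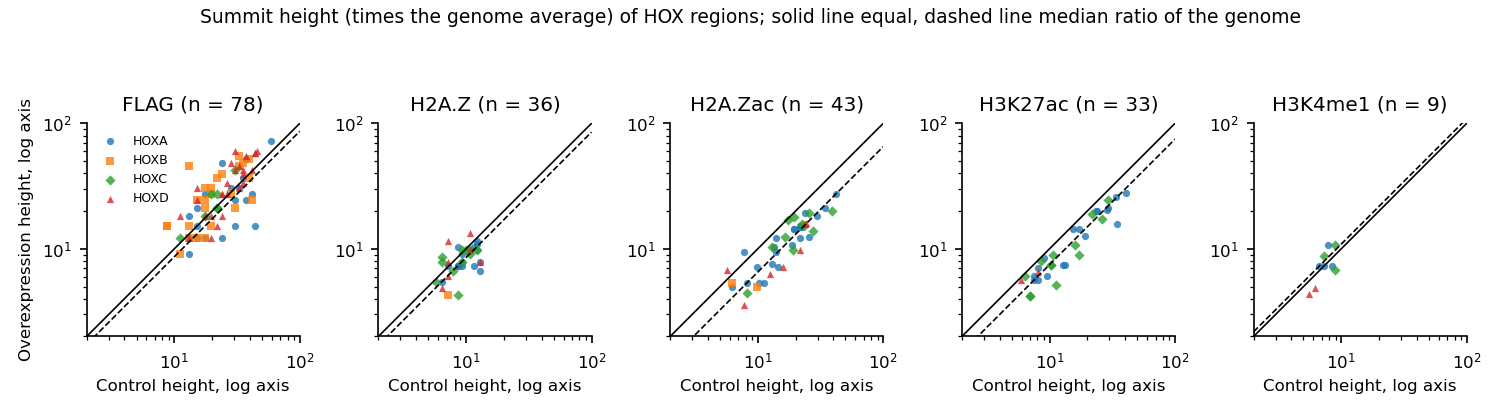
Summit height, as times the genome average, in the overexpression library (y axis, log) against the control library (x axis, log) at shared HOX regions called in control, by antibody; symbols are the 4 clusters, the solid line is equality and the dashed line the median ratio over the genome. H2A.Zac and H3K27ac points lie along their dashed lines (0.652 and 0.748), while 48 of 78 FLAG points lie above equality.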

How the data were processed

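Peak lists of 12 ChIP-seq libraries were used. Per the submitters' processing notes the authors used FastQC, Trimmomatic, BWA and MACS2, with no versions given. The deposited fold is the summit's ratio over local background. The deposited p-values and q-values are given as −log10, and the deposited score, which follows −log10 p, was not used. Lists were cut at a p of 0.05 by the authors, as the lowest −log10 p of 1.3 shows, and called separately per library. The notes name hg19 and hg38, and coordinates fit hg19 lengths (GenomeInfoDb 1.38.1). Titles set the groups, since the genotype labels of 5 overexpression libraries differ from their titles in the VPS number. In the control H3K4me1 list the peaks are named for another mark, and the title was followed.

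Whole summit reads were computed from fold and −log10 p (at least 99.999% of peaks whole, within a tolerance of 0.002 of −log10 p) with Python 3.11.15, scipy 1.17.1 and pandas 2.3.3, after tests on simulated data. Regions overlap by at least 1 bp. Members and lists were chosen with earlier results of these data known. In each list and window the region with the highest −log10 q was named, then the strongest unshared and the widest regions. Promoters other than HOXA9 were chosen after the RefSeq table was seen. Gene-level occupancy, including that of Polycomb and cofactor genes, was not run because no annotation of the build was used here. Alternatives covered the q limit, window edges, overlap, height and left-out clusters.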

Additional observations from a re-analysis of the deposited data

How the results depend on the processing

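Of 54 alternatives for the ratios of called regions, 48 kept direction and stayed within a broad band around the main value. So did 46 of 49 for the median height ratios. The band is loose: the FLAG height ratio of 1.13 and its 1.01 in the deposited fold counted as the same. Many alternatives reuse most of the same regions. With no limit on q the ratio of called regions was 1.03 for FLAG, 1.05 for H2A.Zac and 1.13 for H3K4me1. With a height of at least 5 in place of q the ratio of called regions was 0.951 for H3K4me1, where that height takes more reads with overexpression than in control. For FLAG it was 1, where that height takes fewer reads with overexpression than in control. At a q of 1e-05 the ratio of called regions was 1 for FLAG. The H3K4me1 height ratio was 0.832 in the deposited fold, 0.793 without the HOXA window and 0.94 without the HOXC window, over 9, 5 and 6 regions. At a q of 1e-05 no H3K4me1 region was called in the control windows, so that alternative gave no value for this mark. The following were added after seeing the data. At a q of 1e-05 the share found again with overexpression was 97.3% for FLAG, 92.3% for H2A.Z, 100% for H2A.Zac and 96% for H3K27ac. With a q of 0.05 or less asked of both libraries it was 67.3% for FLAG, 62.2% for H2A.Z and 77.1% for H2A.Zac. Genome shares were not computed at either setting. The overexpression FLAG list held 551907 deposited peaks, beside 184114 in control. With no limit on q for the histone marks, 52% of control and 36.2% of overexpression FLAG regions lay on a mark. The remaining 48% and 63.8% had no deposited histone peak, beside 68.4% and 73.6% over the genome. Except where the alternative itself changes which peaks enter, the cause was not tested. No paired analysis was possible because each antibody has 1 library per condition. The shallow FLAG libraries limit single regions most.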
